A study of Homo sapiens with 3 samples.

Results

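Expression of 31 genes of cholesterol and fatty acid synthesis was examined in single-cell RNA-seq libraries of prostate cancer cell lines. The 31 genes were chosen by name from the pathways, with earlier results of these data known. All 31 were among the 33423 genes counted in the 3 libraries and had transcripts in every library. They comprised 18 enzymes of the sterol branch, 9 enzymes of the fatty acid branch, and 4 genes that control the pathway or carry sterols (SREBF1, SREBF2, INSIG1 and STARD4).

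Cells make cholesterol from acetyl-CoA through mevalonate, isoprenoids, squalene and lanosterol, and they make palmitate from the same acetyl-CoA by way of malonyl-CoA. Both routes are driven largely by the sterol regulatory element-binding proteins (SREBPs), membrane-bound transcription factors that SCAP escorts from the endoplasmic reticulum to the Golgi for cleavage when sterols run low, and that INSIG proteins hold back when sterols are plentiful. INSIG1 is itself a target of SREBPs, and in prostate cells androgen signaling is known to raise the expression of many genes of both routes.

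Drop-seq, which pairs single cells with barcoded beads in droplets and tags every mRNA with a unique molecular identifier (UMI), was applied to LNCaP cells exposed to 10 µM of the androgen receptor antagonist enzalutamide (ENZ) for 168 h (LNCaP–ENZ168), VCaP cells exposed to 10 µM ENZ for 48 h (VCaP–ENZ48), and VCaP cells kept for 48 h in 0.1% DMSO, the vehicle (VCaP parental). Each group was 1 library, so differences between them could not be checked against replicates or tested. All intervals are 95% intervals that cover counting error only. LNCaP and VCaP are established lines grown in different media with serum, so line, medium and length of exposure cannot be told apart between LNCaP–ENZ168 and VCaP–ENZ48.

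After filtering, 944, 997 and 947 cells remained for LNCaP–ENZ168, VCaP parental and then VCaP–ENZ48, at median depths of 5389, 17817 and 11224 UMIs. Mitochondrial transcripts made up 6.24 to 8.94% of UMIs. Each pair of libraries shared 1 cell barcode. The epithelial markers EPCAM, KRT8 and KRT18 were found in all 3 libraries, and ERG, which VCaP expresses from a gene fusion, had 0 UMIs in LNCaP–ENZ168. Of 7 markers of other cell types (PTPRC, PECAM1, COL1A1, COL1A2, DCN, KRT5 and TP63), 4 were listed in the files, and the highest of them, COL1A1, reached 1.58 CPM (UMIs of a gene per 1000000 UMIs of the library). Among the 1000 barcodes of each library, 212 in LNCaP–ENZ168, 860 in VCaP parental and 869 in VCaP–ENZ48 ended in the letter N in place of a base.

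The promoters of 4 genes are shown because the genes were among those most reduced in VCaP–ENZ48 (INSIG1, HMGCS1, MSMO1) or a desaturase of the fatty acid branch (SCD). Each sequence is the RefSeq strand of the gene on GRCh38.p14, 5′ to 3′, cut so that it touches no annotated exon, and capitals mark CCAAT or its reverse complement. The stretches are chr5:43313513-43313662 on the minus strand for HMGCS1, chr7:155297628-155297775 on the plus strand for INSIG1, chr4:165327419-165327666 on the plus strand for MSMO1 and chr10:100346983-100347232 on the plus strand for SCD.
HMGCS1: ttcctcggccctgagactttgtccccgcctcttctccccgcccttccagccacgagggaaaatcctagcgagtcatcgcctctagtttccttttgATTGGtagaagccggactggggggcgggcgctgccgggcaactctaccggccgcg
INSIG1: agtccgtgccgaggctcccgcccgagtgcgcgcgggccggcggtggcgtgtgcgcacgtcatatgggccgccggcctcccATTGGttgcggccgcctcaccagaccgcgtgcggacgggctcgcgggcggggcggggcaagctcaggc
MSMO1: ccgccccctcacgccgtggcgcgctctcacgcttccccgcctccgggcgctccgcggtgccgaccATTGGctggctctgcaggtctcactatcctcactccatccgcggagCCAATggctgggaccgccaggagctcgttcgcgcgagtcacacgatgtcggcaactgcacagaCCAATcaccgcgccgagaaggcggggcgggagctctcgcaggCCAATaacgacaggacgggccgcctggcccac
SCD: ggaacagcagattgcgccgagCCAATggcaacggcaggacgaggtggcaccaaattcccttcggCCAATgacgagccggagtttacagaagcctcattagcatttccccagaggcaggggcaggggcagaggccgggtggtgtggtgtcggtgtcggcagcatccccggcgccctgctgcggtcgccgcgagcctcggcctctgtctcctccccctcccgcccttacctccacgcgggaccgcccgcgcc
CCAAT, the element bound by NF-Y, which cooperates with SREBPs at many sterol promoters, was searched on both strands in windows of 300 bases around the start site, of which 250 bases lay before it. RefSeq promoters were matched for 27 of the 31 genes. CCAAT stood in 19 of 27 (70.4%), against 35.7% of all 27305 promoters. It stood in 12 of the 15 sterol promoters, 4 of the 8 fatty acid promoters and 3 of the 4 promoters of regulators and STARD4. The GC-box core GGGCGG was found in 24 of 27 (88.9%), against 44.6% of all promoters. The strict sterol regulatory element TCACNCCAC was found only in SREBF2 (TCACCCCAC on the plus strand, starting 133 bases before the start site), 1 of 27 (3.70%), against 1.15% of all promoters. These matches describe letters in the windows and were not tested as binding sites.

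Levels are given as CPM over the summed UMIs of all kept cells of a library. UMIs of Drop-seq come from the 3′ ends of transcripts and are not divided by length, so levels of single genes were compared between libraries and not with each other, and sums and shares over genes, where given, are of UMIs. VCaP parental had the highest level of the 3 libraries for 21 of the 31 genes, and VCaP–ENZ48 had the lowest for 25. LNCaP–ENZ168 was highest for 7 genes (MVK, MVD, HSD17B7, ACLY, FADS2, ELOVL5 and SREBF1), and VCaP–ENZ48 was highest for 3 (PMVK, TM7SF2 and SC5D). Some of these orders rest on neighbours whose intervals overlap, such as MVK in LNCaP–ENZ168 and VCaP parental. The orders also depend on the scaling. With TMM scaling, an alternative listed below, genes such as HMGCS1 (log2 ratio -0.49), MSMO1 (-0.36) and FASN (-0.23) were lower in LNCaP–ENZ168 than in VCaP–ENZ48. PMVK (-0.12) and SC5D (-0.18) were then lower in VCaP–ENZ48 than in VCaP parental.

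**Figure D1:**
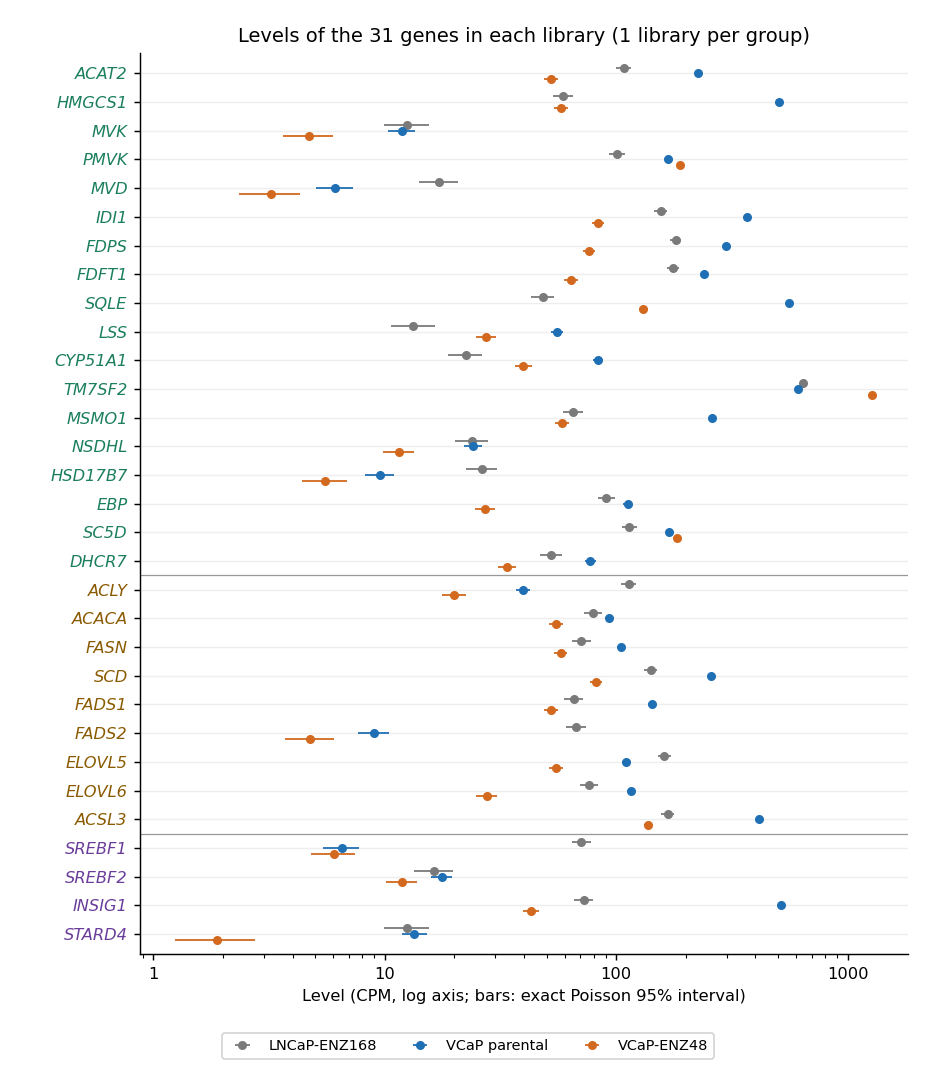
Level of each of the 31 genes (CPM, log axis) in the 3 libraries, with exact Poisson 95% intervals as bars, in pathway order from the sterol branch at the top through the fatty acid branch to the regulators and STARD4. INSIG1 sits at 515 CPM in VCaP parental and at 42.7 CPM in VCaP–ENZ48, while TM7SF2 sits at 612 and 1269 CPM.

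The VCaP libraries were compared to see how the pathway differed after a short exposure to ENZ in the same line. Most enzymes of both branches were lower in VCaP–ENZ48. A gene was counted as different when its log2 ratio of CPM + 1 was at least 1 in size, a 2-fold difference, and its mean level was at least 10 CPM. Of the 25 genes that reached this level, 16 were at least 2-fold lower and 1 was at least 2-fold higher, against 6.77% of all 7729 genes of that level lower and 8.19% higher. The median log2 ratio of all 7729 genes was -0.07, and 22 of the 25 lay below it. The 6 genes under the minimum (MVK, MVD, HSD17B7, FADS2, SREBF1 and STARD4) had log2 ratios from -2.32 to -0.10.

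Of the 15 genes of the sterol branch at sufficient level, 11 were at least 2-fold lower and 1 was higher, and their median log2 ratio was -1.90, which is -1.83 relative to the median of all genes (-1.93 to -1.73, from the interval of the middle gene). Of the 8 such genes of the fatty acid branch, 4 were at least 2-fold lower and 0 were higher, and all 8 lay below the median of all genes. Their median was -1.21, or -1.14 relative to all genes (-1.26 to -1.03). The sterol branch thus had the lower median, but as means over genes the branches were close, at -1.30 and -1.23 relative to all genes, and the order of their sums, given below, was the opposite when TM7SF2 was included. The threshold itself split close neighbours, since NSDHL at -1.004 was inside it and ELOVL5 at -0.996 and LSS at -0.99 were outside.

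**Figure D2:**
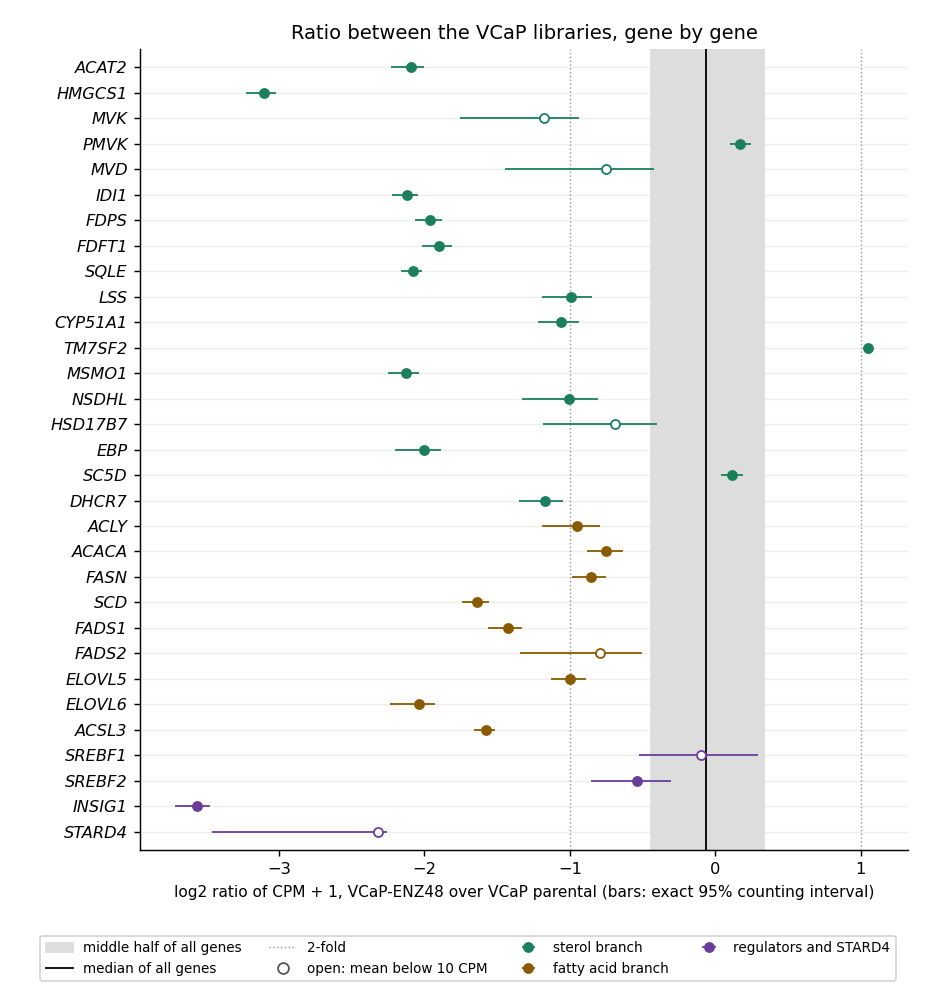
Log2 ratio of CPM + 1, VCaP–ENZ48 over VCaP parental, for the 31 genes in pathway order, with exact conditional 95% intervals, which leave out the + 1. The line is the median of all 7729 genes (-0.07), the grey band runs from -0.44 to 0.34 and holds the middle 50% of all genes, and INSIG1 at -3.56 and TM7SF2 at 1.05 mark the ends of the set.

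The early steps of the sterol branch, from acetyl-CoA to farnesyl diphosphate, were reduced at most enzymes. HMGCS1, the cytosolic synthase that commits acetyl-CoA units to the mevalonate route (chromosome 5, 43287470 to 43313512), was at 59.1 CPM in LNCaP–ENZ168, 504 in VCaP parental (494 to 514) and 57.8 (53.9 to 61.8) in VCaP–ENZ48. VCaP parental stood far above both ENZ-exposed libraries, and the VCaP ratio was -3.10 (-3.23 to -3.02), an 8.72-fold lower level. Only 0.582% of all genes had a lower ratio.

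ACAT2, the cytosolic thiolase that joins acetyl-CoA units, was at 108 CPM in LNCaP–ENZ168, 227 in VCaP parental and 52.4 in VCaP–ENZ48 (4.33-fold lower in VCaP–ENZ48 than in VCaP parental). IDI1, which interconverts the isoprenoid building blocks, was at 156, 367 and 83.6 CPM in the same order (4.39-fold lower). FDPS, the farnesyl diphosphate synthase, was at 181, 299 and 76.3 CPM (3.92-fold lower). In each of these VCaP parental was highest and VCaP–ENZ48 lowest, with LNCaP–ENZ168 between them and no overlap of the counting intervals. IDI1 and FDPS have annotated pseudogenes, to which reads may be lost in counting.

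PMVK, the phosphomevalonate kinase in the middle of this sequence, did not follow its neighbours. It was at 101 CPM in LNCaP–ENZ168, 168 in VCaP parental and 189 in VCaP–ENZ48, a VCaP ratio of 0.17 (0.10 to 0.25) that turned to -0.12 with TMM scaling and -0.06 with median-of-ratios scaling. The kinase MVK (12.5, 11.8 and 4.68 CPM) and the decarboxylase MVD (17.1, 6.10 and 3.22 CPM) flank it and were too low in the VCaP libraries to be counted, with ratios of -1.18 (-1.75 to -0.94) and -0.75 (-1.45 to -0.42).

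The steps from squalene to lanosterol were lower at all 3 enzymes, by different amounts. FDFT1, the squalene synthase, was at 176 CPM in LNCaP–ENZ168, 240.4 in VCaP parental and 63.8 in VCaP–ENZ48 (3.77-fold lower). SQLE, the squalene epoxidase and a known control point of the branch, was at 48.3, 557 and 131 CPM (4.25-fold lower, a ratio of -2.08, -2.16 to -2.02). LSS, which closes the sterol rings, was at 13.3, 55.3 and 27.3 CPM, a ratio of -0.99 (-1.19 to -0.85). SQLE and LSS were therefore lowest in LNCaP–ENZ168, while FDFT1 was lowest in VCaP–ENZ48.

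From lanosterol to cholesterol the enzymes divided. The sterol methyl oxidase MSMO1 was at 65.3 CPM in LNCaP–ENZ168, 258 in VCaP parental and 58.4 in VCaP–ENZ48 (4.42-fold lower). The isomerase EBP was at 90.8, 112 and 27.2 CPM (4.12-fold lower). These were the enzymes of this stretch with the lowest ratios, -2.13 and -2.00.

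Smaller reductions were seen for DHCR7, which performs a last reduction to cholesterol, at 52.3, 77.4 and 33.8 CPM (-1.17, -1.35 to -1.05), and for the lanosterol demethylase CYP51A1, at 22.3, 83.7 and 39.7 CPM (-1.06, -1.22 to -0.94). The dehydrogenase NSDHL was at 23.8, 24.1 and 11.5 CPM (-1.33 to -0.81). For NSDHL and CYP51A1 the interval spans the 2-fold line, so the depth does not place them on either side. HSD17B7, at 26.3, 9.53 and 5.52 CPM, was below the minimum (-0.69, -1.19 to -0.40). CYP51A1 and HSD17B7 have annotated pseudogenes, and CYP51A1 and EBP overlap annotated genes on their own strand, so their counts are uncertain.

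TM7SF2, a sterol reductase of the endoplasmic reticulum whose activity is shared with the nuclear envelope protein LBR, was the 1 member at least 2-fold higher. It was at 642 CPM in LNCaP–ENZ168 (622 to 662), 612 in VCaP parental (602 to 624) and 1269 (1251 to 1288) in VCaP–ENZ48, a ratio of 1.05 (1.02 to 1.08) between the VCaP libraries. On the CPM scale LNCaP–ENZ168 and VCaP parental were close, and VCaP–ENZ48 stood above both. The ratio stayed above 0 with every scaling (0.76 with TMM, 0.82 with median-of-ratios, 1.16 without mitochondrial and ribosomal protein genes) and was under 1 with TMM and median-of-ratios scaling. The 5′ end of TM7SF2 (chromosome 11, 65111845 to 65116384) overlaps the upstream gene VPS51 by 18 bases on the same strand. VPS51 was at 112, 73.0 and 89.7 CPM, a VCaP ratio of 0.29. SC5D, the desaturase that acts just before DHCR7, was at 114, 169 and 183 CPM, a ratio of 0.11 (0.04 to 0.19) that turned to -0.18 with TMM and -0.12 with median-of-ratios scaling.

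In the fatty acid branch the 3 enzymes that build palmitate were lower by less than 2-fold on the CPM scale. All 3 passed 2-fold with TMM scaling (ACLY -1.24, ACACA -1.04 and FASN -1.15), and the interval of ACLY below spans the 2-fold line. ACLY, which splits citrate to acetyl-CoA, was at 113 CPM in LNCaP–ENZ168, 39.7 in VCaP parental and 20.0 in VCaP–ENZ48, a ratio of -0.95 (-1.19 to -0.79). ACACA, the carboxylase that makes malonyl-CoA, was at 79.5, 93.4 and 55.2 CPM (-0.75, -0.88 to -0.64). FASN, the fatty acid synthase, was at 70.8, 104.9 and 57.5 CPM (-0.86, -0.99 to -0.75). All 3 were lowest in VCaP–ENZ48.

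Of the 6 enzymes that modify or activate the chains, 4 (SCD, ELOVL6, ACSL3 and FADS1) were at least 2-fold lower. SCD, which makes oleate from stearate, was at 141 CPM in LNCaP–ENZ168, 257 in VCaP parental and 81.7 in VCaP–ENZ48 (3.14-fold lower, a ratio of -1.64, -1.74 to -1.56). ELOVL6, which extends palmitate, was at 76.7, 116 and 27.6 CPM (4.23-fold lower). The acyl-CoA ligase ACSL3, which activates fatty acids for lipid synthesis, was at 167, 412 and 138 CPM (3.00-fold lower). SCD and ACSL3 have an annotated pseudogene each.

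FADS1, a desaturase of polyunsaturated fatty acids, was at 65.4, 142 and 52.4 CPM (-1.43, -1.56 to -1.33), and the elongase ELOVL5 of the same route was at 162, 111 and 55.0 CPM (-0.996, -1.13 to -0.89). FADS2, the partner desaturase, was at 67.2 CPM in LNCaP–ENZ168 but at 8.97 and 4.75 CPM in the VCaP libraries, a ratio of -0.79 (-1.34 to -0.50). FADS1 and FADS2 overlap on opposite strands and FADS2 overlaps FEN1 on its own strand, so their counts are uncertain.

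INSIG1, the sterol-responsive brake on SREBP processing (chromosome 7, 155297776 to 155310235), had the largest difference of the set between the VCaP libraries. It was at 72.5 CPM in LNCaP–ENZ168 (66.1 to 79.5), 515 in VCaP parental (505 to 526) and 42.7 (39.4 to 46.2) in VCaP–ENZ48. VCaP parental was far above both other libraries, and VCaP–ENZ48 was 12.1-fold lower, a ratio of -3.56 (-3.71 to -3.47) with 0.181% of all genes lower. The genes for the SREBPs themselves differed by less than 2-fold between the VCaP libraries, with SREBF2 lower in VCaP–ENZ48 and SREBF1 below the level minimum. SREBF2, which encodes SREBP2, the main driver of the sterol branch, was at 16.3, 17.6 and 11.8 CPM (-0.54, -0.85 to -0.31). SREBF1, which encodes SREBP1, the main driver of the fatty acid branch, was at 70.8 CPM in LNCaP–ENZ168 and at 6.51 and 6.01 CPM in the VCaP libraries (-0.10, -0.53 to 0.29). The activity of SREBPs is set by cleavage and cannot be read from these levels. STARD4, a soluble carrier of cholesterol, was at 12.5, 13.4 and 1.89 CPM, on 27 UMIs in VCaP–ENZ48, with a ratio of -2.32 (-3.46 to -2.26) below the level minimum.

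Genes around the pathway were also counted. Of 7 sterol-sensing genes of sufficient level that escort, cleave or degrade components of the SREBP system (SCAP, INSIG2, MBTPS1, MBTPS2, ERLIN1, ERLIN2 and RNF139), 0 were 2-fold apart between the VCaP libraries, with ratios from -0.06 to 0.66. Of 5 genes of cholesterol handling, 1 was at least 2-fold lower. It was TMEM97, a sterol-responsive membrane protein, at 187 CPM in VCaP parental and 88.8 in VCaP–ENZ48 (-1.07), and at 84.7 CPM in LNCaP–ENZ168. No gene passed in either direction among 4 of isoprenoid use, 11 other genes of fatty acid metabolism and 9 of fatty acid oxidation, whose medians were 0.06, -0.01 and 0.22. Their ratios ran from -0.35 to 0.82, from -0.81 to 0.94 and from -0.65 to 0.76. The lowest of them, ACSL1 at -0.81, lay between the synthesis enzymes FASN (-0.86) and ACACA (-0.75). Levels at least 2-fold lower were therefore found at synthesis enzymes and INSIG1 and, in these companion lists, only at TMEM97. Smaller reductions were seen in the lists too, and the difference between lists was not tested. The genes and lists were chosen with earlier results of these data known, so this difference cannot be told apart from that choice. The cholesterol exporters ABCA1 (0.87 and 3.50 CPM) and ABCG1 (2.77 and 11.1 CPM) and the sterol receptor NR1H2 (4.92 and 11.7 CPM) had ratios of 1.26, 1.69 and 1.11, but all 3 were under the level minimum.

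The branches were then compared as sums. The 18 sterol enzymes together held 1909 CPM in LNCaP–ENZ168 (1875 to 1943), 3783 in VCaP parental (3756 to 3810) and 2318 (2293 to 2343) in VCaP–ENZ48. The 9 fatty acid enzymes held 942, 1285 and 491 CPM in the same order. Within a library, independent of scaling, the log2 of sterol over fatty acid UMIs was 1.56 in VCaP parental (1.54 to 1.58), 2.24 in VCaP–ENZ48 (2.20 to 2.28) and 1.02 in LNCaP–ENZ168 (0.97 to 1.06).

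TM7SF2 alone made up 54.8% of the sterol UMIs in VCaP–ENZ48, 16.2% in VCaP parental and 33.6% in LNCaP–ENZ168. Without TM7SF2 and ACSL3, the gene of each branch with the most UMIs, the log2 ratio was 1.86 in VCaP parental, 1.57 in VCaP–ENZ48 and 0.71 in LNCaP–ENZ168, so that VCaP parental, not VCaP–ENZ48, was then highest. Between the VCaP libraries the sterol sum was 1.63-fold lower in VCaP–ENZ48 with TM7SF2 and 3.02-fold lower without it, and the fatty acid sum was 2.61-fold lower with ACSL3 and 2.47-fold lower without it. Between the ENZ-exposed libraries the direction of the sterol sum turned, since LNCaP–ENZ168 was lower than VCaP–ENZ48 with TM7SF2 (-0.28 on the log2 scale, -0.31 to -0.25) and higher without it (0.27, 0.23 to 0.31).

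**Figure D3:**
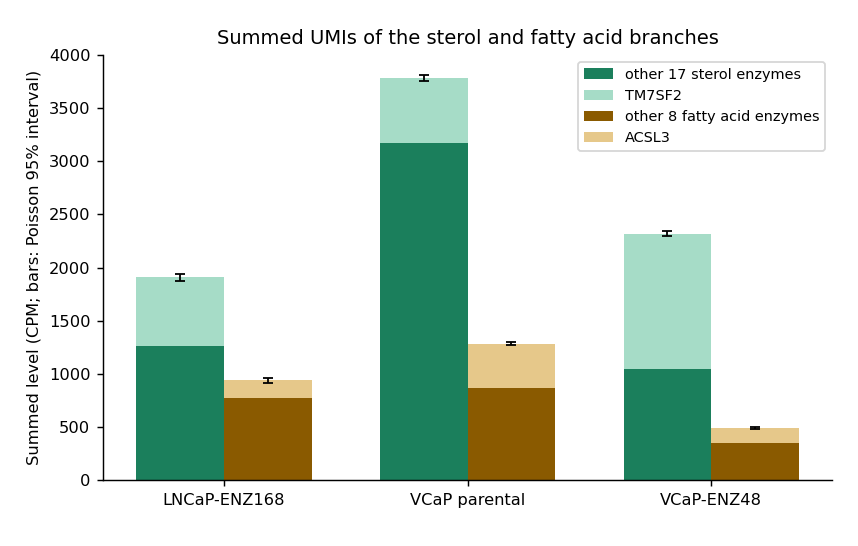
Summed level (CPM) of the 18 sterol enzymes (left bar of each pair) and the 9 fatty acid enzymes (right bar) in the 3 libraries, with TM7SF2 and ACSL3 drawn as the upper part and Poisson 95% intervals of each whole sum. TM7SF2 takes 54.8% of the sterol sum in VCaP–ENZ48 and 16.2% in VCaP parental.

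Cell cycle and depth differed between the VCaP libraries as well. After each cell was thinned to 2000 UMIs, the median cell had 22 UMIs of S and G2M phase genes in VCaP parental and 4 in VCaP–ENZ48, and 7 in LNCaP–ENZ168. In cells with at most 10 such UMIs (332 and 859 VCaP cells), 15 genes were at least 2-fold lower and 0 were higher, against 3.12% and 7.04% of all genes. There the ratios of INSIG1 (-3.49) and HMGCS1 (-3.04) stayed within their intervals for all cells. Others were less reduced, such as SQLE (-1.98), ELOVL6 (-1.89), EBP (-1.65 against -2.00 in all cells) and FADS1 (-1.19 against -1.43). SCD (-1.76) and ACSL3 (-1.66) were more reduced. The sterol median relative to all genes was -1.57, against -1.83 in all cells, and the ratio of TM7SF2 was 0.76. In cells of 5000 to 15000 UMIs (303 and 404 cells) 16 genes were lower and 1 was higher, against 6.64% and 7.62% of all genes. Among barcodes ending in a base (138 and 127 cells) 15 were lower and 0 were higher, against 7.33% and 8.62% of all genes, and HMGCS1 was at -2.56.

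**Figure D4:**
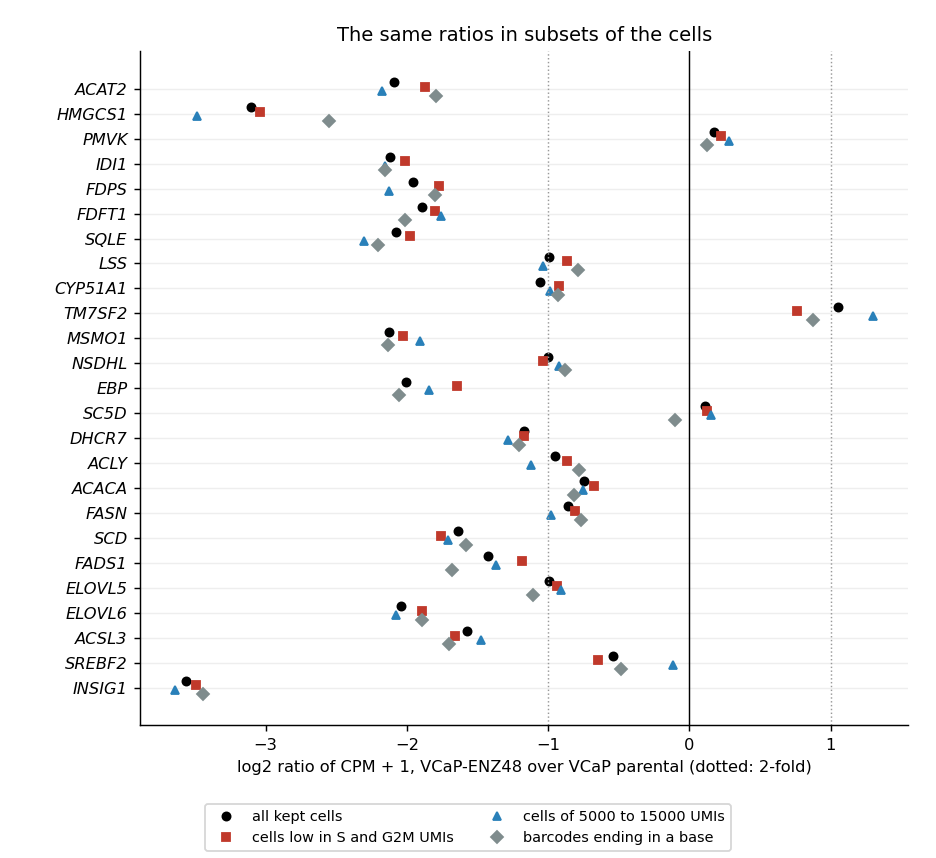
Log2 ratio of CPM + 1, VCaP–ENZ48 over VCaP parental, for the 25 genes of sufficient level, in all kept cells and in 3 subsets of the cells (shapes and colours). INSIG1 lies between -3.64 and -3.45 in all of them, and TM7SF2 between 0.76 and 1.30.

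Within a library, cells with more S and G2M UMIs had somewhat more of the sterol branch without TM7SF2. In VCaP parental the sterol enzymes without TM7SF2 summed to 2828 CPM in cells with at most 10 such UMIs (2786 to 2871) and 3322 CPM in cells with more (3292 to 3353). The same sums in VCaP–ENZ48 were 1019 CPM (1002 to 1037) and 1404 CPM (1336 to 1474), and in LNCaP–ENZ168 they were 1166 and 1525 CPM. VCaP–ENZ48 cells with many S and G2M UMIs, only 58 cells, thus held less than VCaP parental cells with few. TM7SF2 went the other way in all 3 libraries, from 762 to 546 CPM in VCaP parental, 1295 to 1007 in VCaP–ENZ48 and 733 to 409 in LNCaP–ENZ168. With TM7SF2 included, the intervals of the sterol sums were apart only in VCaP parental, at 3590 CPM (3542 to 3638) and 3868 CPM (3835 to 3902). The sums were then 2314 and 2411 CPM in VCaP–ENZ48 and 1899 and 1934 CPM in LNCaP–ENZ168, with overlapping intervals.

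The lower level in VCaP–ENZ48 was spread over its cells. Of 2000 UMIs, the median VCaP parental cell had 6 from the 17 sterol enzymes other than TM7SF2 (2 to 11 in the middle 80% of 997 cells) and the median VCaP–ENZ48 cell had 2 (0 to 4 in 917 cells). LNCaP–ENZ168 cells had a median of 2 (0 to 5 in 943 cells). Without TM7SF2, 34 of the 917 VCaP–ENZ48 cells (3.71%) reached the VCaP parental median of 6, and the highest had 27 such UMIs. With TM7SF2 included, the medians were 7 (3 to 12) in VCaP parental, 4 (2 to 8) in VCaP–ENZ48 and 4 (1 to 7) in LNCaP–ENZ168. The middle 80% of VCaP–ENZ48 cells then reached past the VCaP parental median. The fatty acid enzymes gave a median of 3 UMIs in VCaP parental, 1 in VCaP–ENZ48 and 2 in LNCaP–ENZ168, and 96 VCaP–ENZ48 cells (10.5%) reached the VCaP parental median. At 0 UMIs of the fatty acid branch were 9.13% of VCaP parental, 38.5% of VCaP–ENZ48 and 17.3% of LNCaP–ENZ168 cells, shares that this depth limits.

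The variance of the sterol UMIs without TM7SF2 over cells was 2.44 times their mean in VCaP parental. It was 1.71 times in VCaP–ENZ48 and 1.28 times in LNCaP–ENZ168. Independent counts at 1 level would give 1. With TM7SF2 included the values were 2.25, 2.34 and 1.32 in the same order, so VCaP parental was then not above VCaP–ENZ48. For the fatty acid branch the values were 1.12, 1.25 and 1.25. The mean counts per cell also differed, at 6.31, 2.13 and 2.55 UMIs for the sterol enzymes without TM7SF2. They were 2.63, 1.04 and 1.91 for the fatty acid enzymes in the same order. The ratio of variance to mean can grow with the mean.

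**Figure D5:**
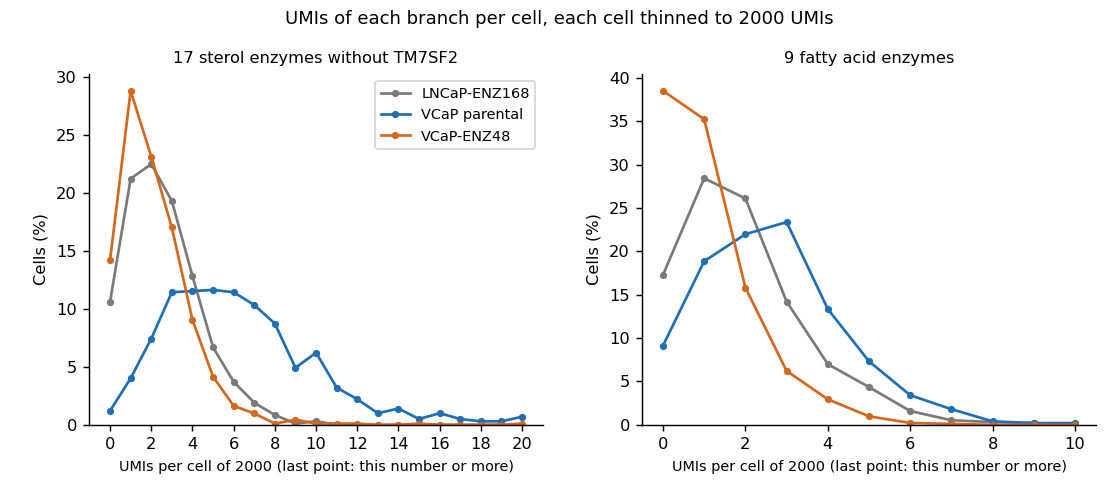
Share of cells (%) by UMIs of the 17 sterol enzymes without TM7SF2 (left) and of the 9 fatty acid enzymes (right), each cell thinned to 2000 UMIs, 1 line per library, with the last point holding that number or more. The sterol medians are 6 in VCaP parental and 2 in VCaP–ENZ48 and in LNCaP–ENZ168.

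The comparison of LNCaP–ENZ168 with VCaP–ENZ48 set both ENZ-exposed lines side by side and shares the VCaP–ENZ48 library with the comparison above. Over the 8854 genes of sufficient level here the median log2 ratio was 0.66, so most genes were higher in LNCaP–ENZ168 on this scale. Of 29 genes of the set at that level, 11 were at least 2-fold higher and 1 was lower, against 35.5% and 11.1% of all genes. The share of the set that was higher was thus close to that of all genes, and 14 of the 29 lay below the median. Among the higher genes, MVD, HSD17B7, FADS2 and SREBF1 were under 10 CPM in VCaP–ENZ48. They reached the minimum only through their level in LNCaP–ENZ168, so the filter favoured these calls. The sterol median was -0.04 relative to all genes (-0.25 to 0.17), an interval that includes 0. The exact interval of SCD, the middle gene of the fatty acid branch, was 0.660 to 0.915, just above the median of all genes at 0.655. The fatty acid median was 0.13 (-0.002 to 0.25, the width for SCD set evenly around it), so the lower end is not clearly on either side of 0. As a mean over genes the fatty acid branch was at 0.75, and with a minimum of 1 CPM its median was 0.28, both above that interval.

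Single genes differed more. FADS2 was 14.1-fold higher in LNCaP–ENZ168 than in VCaP–ENZ48 (log2 ratio 3.57, 3.45 to 4.21), SREBF1 11.8-fold (3.36, 3.22 to 3.91) and ACLY 5.66-fold (2.44, 2.30 to 2.70). STARD4 (2.23) and MVD (2.10) came next, both on few UMIs in VCaP–ENZ48. Of the 4 genes furthest the other way, SQLE was 2.71-fold lower in LNCaP–ENZ168 (-1.42, -1.62 to -1.26). LSS (-0.99), TM7SF2 (-0.98) and PMVK (-0.90) did not reach 2-fold, but passed it with TMM scaling, where 6 of 28 genes were higher and 6 were lower, against 17.3% and 17.2% of all genes. HMGCS1, the gene with the lowest VCaP ratio of the enzymes, had nearly the same CPM in both libraries, with a ratio of 0.03 (-0.15 to 0.21). Relative to the median of all genes it was at -0.62. Its ratio was -0.49 with TMM and -0.45 with median-of-ratios scaling, so the near equality holds on the CPM scale only.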

How the data were processed

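Drop-seq libraries of LNCaP–ENZ168, VCaP parental and VCaP–ENZ48 (1 library each) were analysed from the deposited counts. The authors aligned reads to GRCh38 (hg38) with STAR and counted raw UMIs of every gene in every cell barcode with the Drop-seq tools, Gencode annotation and an expectation of 1000 cells. Whether counting used strand is not given in the sources used here.

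Cells with at least 300 genes, 500 UMIs and at most 25% mitochondrial UMIs were kept, 6313283 to 19515202 UMIs per library. Doublets were not removed. UMIs were summed per library, scaled to CPM and compared as log2 ratios of CPM + 1, with exact Poisson and exact conditional 95% intervals. With 1 library per group no test was possible, and cells were not used as replicates. The log2 ratios and their conditional intervals were tested on simulated Poisson counts of whole libraries, without spread between cells or cultures. Cells were thinned without replacement to 2000 UMIs for distributions, and S and G2M genes (97 found) came from Seurat 5.3.0.

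Values in every library are given for genes at least 2-fold apart between the VCaP libraries, the 4 with the largest ratios of each branch, the regulators and the 4 with the most extreme ratios of LNCaP–ENZ168 to VCaP–ENZ48 in either direction, and other genes were added to show the pathway order. The genes and lists were chosen with earlier results of these data known. Alternatives covered cell filters, barcode depth and ending, cell cycle, cell weighting, scaling (TMM of edgeR 4.0.16, median-of-ratios), pseudocount, expression minimum and thinning depth, and the sterol sum without TM7SF2 was chosen after seeing the data. Coordinates are from a later Gencode version than the authors used. Software was R 4.3.3 and Python 3.11.15 (scipy 1.17.1, pandas 2.3.3, numpy 2.4.6).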

Additional observations from a re-analysis of the deposited data

How the results depend on the processing

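No paired analysis was possible because the groups hold only 1 library each. Counting error is the sole error that these intervals hold, so differences between cultures, library preparations or runs were not measured, and values below about 10 CPM in VCaP–ENZ48 (STARD4, MVD, MVK, FADS2, HSD17B7, SREBF1) rest on 27 to 86 UMIs. The branch medians between the VCaP libraries kept their sign under every alternative listed here, while the sterol sum of LNCaP–ENZ168 over VCaP–ENZ48 turned from -0.28 to 0.27 (log2) without TM7SF2. Of 128 values of branches and counts under alternatives, 38 moved beyond their interval or by over 1.5 times.

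Between the VCaP libraries the sterol median relative to all genes (-1.83) was -1.71 among barcodes ending in a base, -1.57 in cells with at most 10 S and G2M UMIs of 2000, -1.73 in cells of 5000 to 15000 UMIs, -1.34 with a minimum of 1 CPM, -1.73 with a minimum of 50 CPM and -1.30 as a mean. The fatty acid median (-1.14) was -1.23 as a mean, -1.264 among barcodes ending in a base and -0.98 in cells low in S and G2M UMIs. The count of genes at least 2-fold higher (1, TM7SF2) was 0 among barcodes ending in a base, in cells low in S and G2M UMIs, and with TMM and median-of-ratios scaling. The count lower (16) ranged from 14 with a pseudocount of 5 CPM to 22 with TMM scaling, which moved the median of all genes by -0.27 (median-of-ratios by -0.21, without mitochondrial and ribosomal protein genes by 0.15). With TMM scaling 12.6% of all genes were lower and 5.75% higher.

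Between LNCaP–ENZ168 and VCaP–ENZ48 the sterol median (-0.04) was -0.25 with no cell filter, -0.28 with equal weight of cells, 0.26 with a minimum of 1 CPM and -0.40 with 50 CPM, so its sign is not set. The fatty acid median (0.13) was 0.28 with a minimum of 1 CPM and 0.75 as a mean. The count higher (11) was 6 with TMM and with median-of-ratios scaling and 7 with a minimum of 50 CPM. The count lower (1) was 2 without barcodes above 3 times the median depth, among barcodes ending in a base, in cells of 5000 to 15000 UMIs, with equal weight of cells and with a pseudocount of 0.1 CPM, 5 without mitochondrial and ribosomal protein genes, and 6 with TMM and with median-of-ratios scaling. TMM moved the median of all genes here by -0.55, with 17.3% of genes higher and 17.2% lower.

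The log2 of sterol over fatty acid UMIs in VCaP parental (1.56) was 1.60 among barcodes ending in a base, 1.52 in cells low in S and G2M UMIs, 1.61 in cells of 5000 to 15000 UMIs and 1.86 without TM7SF2 and ACSL3. In VCaP–ENZ48 (2.24) it was 2.30 without barcodes above 3 times the median depth, 2.38 in cells of 5000 to 15000 UMIs and 1.57 without both genes. In LNCaP–ENZ168 (1.02) it was 1.08 in cells low in S and G2M UMIs and 0.71 without both genes. The order of the libraries therefore changed without these genes, and the cause of the other shifts was not tested. Of 744 ratios of single genes under alternatives, 507 stayed within their interval, and no called ratio changed sign.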
